A study of Mus musculus with 9 samples.

Results

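The genes described here encode 10 enzymes that make NAD from tryptophan, recover it from nicotinamide, or draw its precursors away: Afmid, Kmo, Kynu, Haao, Acmsd, Qprt, Nadsyn1, Nmnat1, Nampt and Nnmt. They were chosen by name from the 23420 genes of the deposited table, and all 10 are listed there. Kidney cortex was taken from male C57/BL6 mice that had been fasted for 16 h (Fasted, 4 libraries) or had eaten freely (Fed, 5 libraries). All mice were kept on chow and a 12 h light and dark cycle, and the labels name no allele or drug for either group. They do not say that each library is a separate mouse, so p-values measure the spread between these libraries. A piece of about 50 mg of cortex gave each RNA library, so the tissue is a mixture of tubule, vessel and other cells. The comparison asks which transcripts of NAD synthesis differ in the kidney after a fast. All 10 genes averaged 10 normalized counts or more over the 9 libraries, which was required for testing, and Nnmt had the lowest mean (21.4).

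In the kynurenine route tryptophan is opened and trimmed, through formylkynurenine, kynurenine and hydroxylated forms of kynurenine, to an unstable semialdehyde, aminocarboxymuconate semialdehyde. This intermediate is the branch point of the route. If left alone it closes into quinolinate, which Qprt turns into nicotinate mononucleotide on the way to NAD, and if Acmsd removes its carboxyl group it is lost to NAD and passes towards glutaryl-CoA and the citric acid cycle. Most tissues instead recycle nicotinamide through Nampt, while kidney and liver are known for holding the whole route from tryptophan.

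The salvage enzyme Nampt had the largest increase among the 10 genes, and the 250 bases before its RefSeq transcription start are shown because they hold the nuclear receptor half-site AGGTCA. The sequence is from RefSeq on GRCm38.p6, written 5′ to 3′ on the strand of the gene, with the half-site in capitals.
Nampt, chr12:32820085-32820334, plus strand: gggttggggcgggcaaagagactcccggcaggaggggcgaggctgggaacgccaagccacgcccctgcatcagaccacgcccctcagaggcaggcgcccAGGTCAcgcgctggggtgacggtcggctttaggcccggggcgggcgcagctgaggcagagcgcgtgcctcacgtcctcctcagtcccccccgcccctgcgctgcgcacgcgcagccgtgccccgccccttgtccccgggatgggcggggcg
The half-site lies 151 to 146 bases before that start. GENCODE M21 starts the gene earlier, at 32819545, so by its annotation the window lies inside the gene, in no exon. Windows of 9 genes, all but Acmsd, were looked for, and RefSeq windows were found for 7 of them, 8 windows in all. The one other window with this half-site was that of Haao, all 250 bases of which are exon in GENCODE M21. A further 5 windows hold 197 to 212 exon bases, counted over the exons of any gene and not only of the gene named. By that annotation the windows of Afmid and Nadsyn1 lie wholly before the gene, and those of Kmo and Haao wholly inside it. The Nmnat1 window at 149485211-149485460 also lies wholly before its gene. The other Nmnat1 window and that of Qprt span the start of the gene. Of all 32851 windows of this length in the table, 4607 hold AGGTCA on one strand or the other. The E-box CACGTG (6.02% of all windows), the forkhead site TGTTTAC (3.17%) and the HNF4 site CAAAGTCCA (0.384%), each searched on both strands, were in none of the 8 windows. The Nampt window had 75.6% G and C. Such a match says only that the letters are present.

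Acmsd fell in fasted kidneys to 0.253 of its fed level, Qprt fell to 0.699 of it, and Nampt rose to 1.49 times its fed level. The other 7 genes did not pass the test. At a Benjamini-Hochberg adjusted p under 0.05 in limma, 2 of the 10 genes were called lower, against 5.25% of the 15098 genes tested, and 1 was called higher, against 5.72%. The same 3 genes were those whose fasted and fed values did not overlap. Values without overlap were found lower for 6.64% and higher for 7.62% of all genes tested. The median log2 change was -0.12 over the 10 genes and 0.00 over all genes tested. In bulk tissue, fewer cells of a type and less RNA per cell cannot be told apart, and this holds for each change given here.

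**Figure D1:**
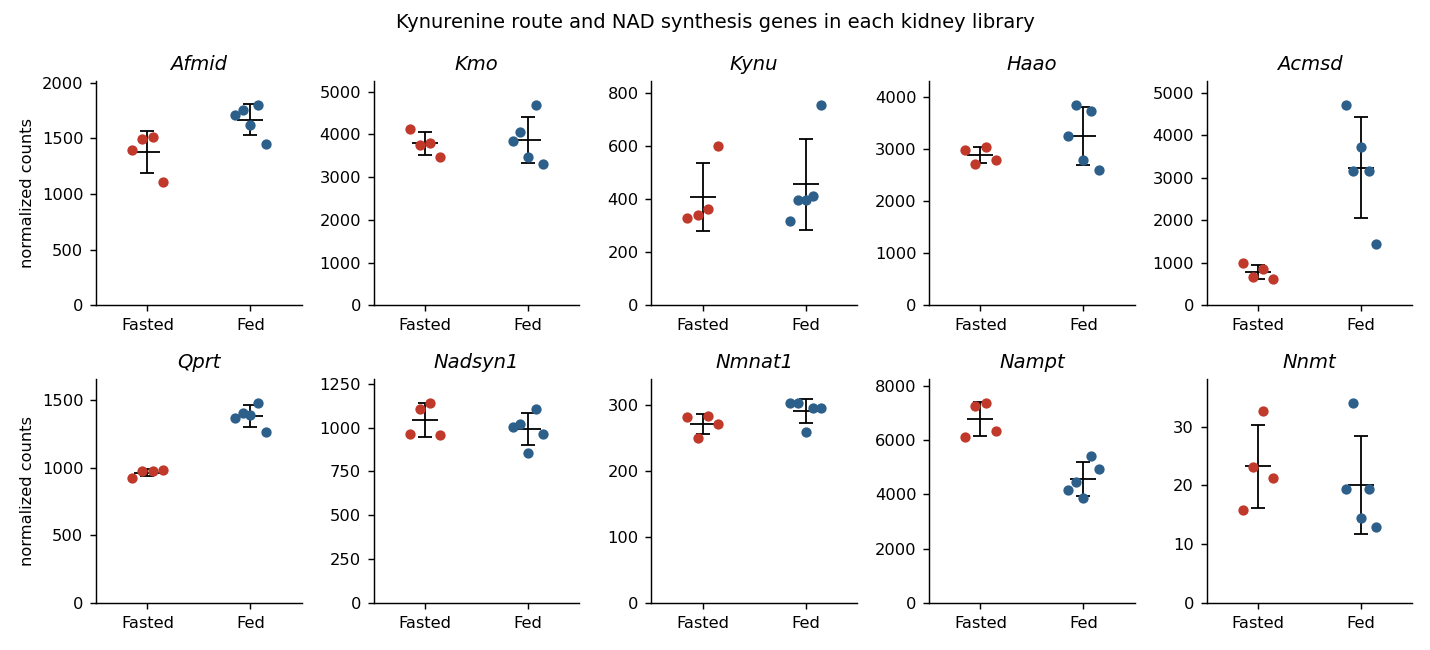
Normalized counts of the 10 genes in each library, 4 Fasted at the left and 5 Fed at the right of each panel, with the group mean and SD as bars; each vertical axis starts at 0 and has its own scale. The fasted points lie wholly below the fed points for Acmsd and Qprt and wholly above them for Nampt, and in the other panels they overlap.

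Acmsd, on chromosome 1 (127729413-127767978, plus strand, GRCm38), had 986, 671, 841 and 614 normalized counts in the fasted kidneys, against 4714, 3152, 3737, 3158 and 1452 in the fed kidneys. Every fasted library was below every fed library, and Fed 5 was the lowest of the fed libraries by a wide gap. The group means were 778 ± 169 in fasted and 3243 ± 1187 in fed kidneys (SD, n = 4 and n = 5). The log2 change, fasted minus fed, was -1.98 (SE 0.28, 95% interval -2.60 to -1.37, limma adjusted p = 0.00166). Of the 15098 genes tested, 9 had a lower log2 change. Without Fed 5 the decrease of Acmsd was larger, at -2.25. In Fed 5 the injury marker Havcr1 stood at 743 normalized counts. It had 17.7 to 104 in the fasted libraries and 28.9 to 87.8 in the other fed ones. The injury markers Lcn2 (151) and Krt20 (132) were also highest in Fed 5, and next highest in Fasted 2 (92.6 and 89.98). Vcam1, the remaining injury marker listed, was not raised in Fed 5 (215), against 239 to 467 in the fasted libraries. The part of injury in the low Acmsd value was not tested. The exons of Acmsd share 94 bases with a gene on the opposite strand, 2900009J06Rik, and the strand setting of the counting is not given in the sources used here.

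Upstream of the branch point the route showed no called change. Afmid, the formamidase that releases kynurenine, had 1399, 1494, 1512 and 1104 normalized counts in the fasted kidneys, against 1715, 1758, 1622, 1801 and 1451 in the fed kidneys. Its groups overlap through Fed 5 alone, the lowest fed library. The log2 change was -0.28 (SE 0.10), with an unadjusted p of 0.0165 and an adjusted p of 0.097 in limma, and it did not pass in any of 19 alternative settings (adjusted p 0.0522 to 0.243). Afmid shares 1566 exon bases with Gm20708 on its own strand and 83 with Tk1 on the opposite one, so its count is uncertain.

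Kmo, which hydroxylates kynurenine, had 4121, 3762, 3799 and 3471 normalized counts in the fasted kidneys, against 3855, 4045, 3465, 4687 and 3309 in the fed kidneys. The fasted values lie inside the fed range. With a log2 change of -0.02 (SE 0.10) the 95% interval ran from -0.24 to 0.19, which leaves out changes as large as that of Qprt. Haao, the dioxygenase that makes the branch point semialdehyde, had 2986, 2728, 3054 and 2803 normalized counts in the fasted kidneys, against 3261, 3854, 2794, 3749 and 2608 in the fed kidneys. The fed spread of Haao (SD 555) exceeded the fasted spread (SD 153), and the fasted values again lie inside the fed range. Its log2 change of -0.15 (SE 0.11) had a 95% interval of -0.40 to 0.10.

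Kynu, the hydrolase that makes hydroxyanthranilate, had 329, 339, 361 and 599 normalized counts in the fasted kidneys, against 318, 397, 397, 410.2 and 753 in the fed kidneys. In each group 1 library stood apart, Fasted 4 and Fed 5, and the other 7 libraries lay between 318 and 410.2. These same 2 libraries had the lowest Acmsd of their group, 614 in Fasted 4 and 1452 in Fed 5. Kynu did not pass (log2 change -0.14, SE 0.24, 95% interval -0.67 to 0.39), and the sign of its change turned without Fed 5 (0.06). Havcr1 was high in Fed 5 and not in Fasted 4, where it had 22.2 normalized counts. Of the 6 leukocyte markers listed, Cd68 was highest in exactly these 2 libraries, with 84.5 in Fasted 4 and 89.5 in Fed 5, against 35.4 to 68.1 in the other 7. The other 5, among them Ptprc with 393 in Fasted 4 and 350.1 in Fed 5, lay inside the range of the other 7 libraries. The part of leukocytes in the Kynu values was not tested.

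**Figure D2:**
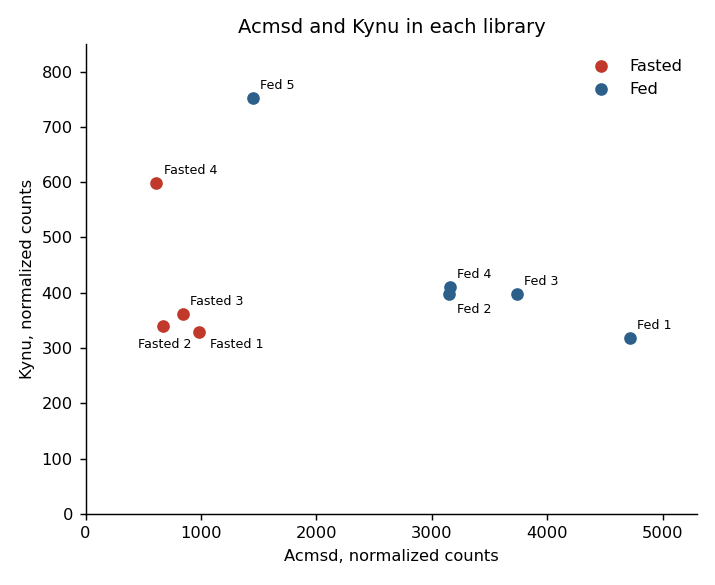
Normalized counts of Acmsd (horizontal axis) and Kynu (vertical axis) in each of the 4 Fasted and 5 Fed libraries, 1 labelled point per library. Fasted 4 (599) and Fed 5 (753) lie above the other libraries in Kynu and are the lowest of their group in Acmsd.

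Qprt, the only enzyme known to use quinolinate and the entry to NAD from the kynurenine route, had 927, 978, 974 and 984 normalized counts in the fasted kidneys, against 1371, 1409, 1392, 1483 and 1264 in the fed kidneys. The groups are far apart relative to their spread, with coefficients of variation of 2.71% in fasted and 5.71% in fed kidneys. Qprt fell to 966 ± 26.2 in fasted kidneys, against 1384 ± 79.1 in fed kidneys (SD, n = 4 and n = 5), a log2 change of -0.52 (SE 0.06, 95% interval -0.65 to -0.38, limma adjusted p = 0.00064). Of all genes tested 592 (3.92%) had a lower log2 change. Acmsd and Qprt, the first enzymes on either arm below the branch point, were thus both lower in fasted kidneys, while Haao, which makes the semialdehyde, did not pass.

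The difference between them was tested in each library as log2 Acmsd minus log2 Qprt, on the log2(value + 1) scale. It was 0.09, -0.54, -0.21 and -0.68 in the fasted kidneys, against 1.78, 1.16, 1.42, 1.09 and 0.20 in the fed kidneys. All fasted values lie below all fed values, though Fasted 1 and Fed 5 are close. The mean was -0.34 ± 0.35 in fasted and 1.13 ± 0.59 in fed kidneys (SD), a difference of -1.47 with p = 0.0159 in a two-sided exact permutation test, the smallest p that 4 against 5 libraries can give. The size of Acmsd relative to Qprt within a library depends on transcript length, but this change between groups does not.

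Relative to the other 8 genes, Acmsd was likewise lower in the fasted libraries, given here as differences without a test. Each difference is the log2 change of Acmsd (-1.98) less that of the other gene, so together they mostly restate the fall of Acmsd. The fasted minus fed difference of log2 Acmsd minus log2 of the other gene was -2.56 for Nampt, -2.22 for Nnmt, -2.06 for Nadsyn1 and -1.96 for Kmo. It was -1.88 for Nmnat1, -1.84 for Kynu, -1.83 for Haao and -1.70 for Afmid. The fasted and fed values did not overlap for any of these genes except Kynu, where Fed 5 (0.95) lay below 3 of the fasted libraries.

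**Figure D3:**
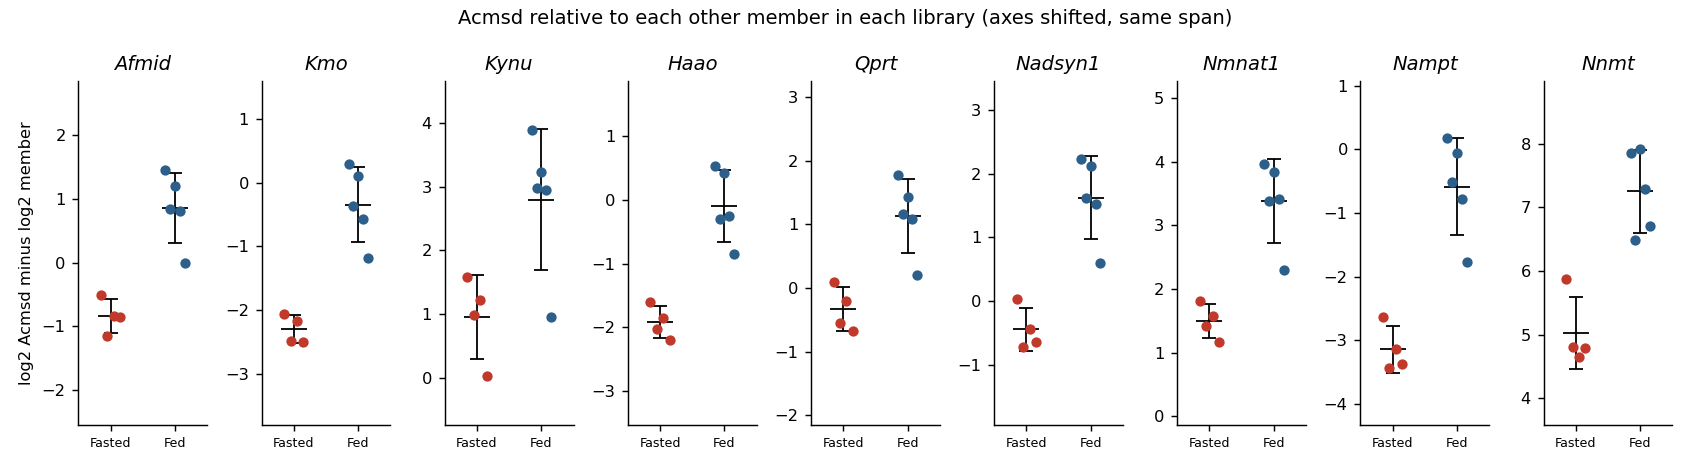
Log2 Acmsd minus log2 of each other gene (vertical axis, log2(value + 1) scale) in every library, Fasted left and Fed right, with the mean and SD as bars; the axes are shifted between panels and span the same range. Fasted values lie below fed values in every panel, with an overlap for Kynu only.

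Of the genes for the last steps to NAD, Nadsyn1 and Nmnat1 did not pass the test. Nadsyn1, the synthetase that amidates the nicotinate dinucleotide, had 964, 1108, 1141 and 958 normalized counts in the fasted kidneys, against 1004, 1023, 855, 1104 and 962 in the fed kidneys. Nmnat1, the nuclear enzyme that joins the mononucleotide to an adenylate, had 281, 249, 283 and 271 in the fasted kidneys, against 302, 303, 259, 295 and 295 in the fed kidneys. Both ranges overlap, and Fed 3 was the lowest fed library for both genes. The log2 change was 0.08 (SE 0.09, 95% interval -0.12 to 0.27) for Nadsyn1 and -0.10 (SE 0.08, 95% interval -0.28 to 0.08) for Nmnat1. Nmnat3, of the same family as Nmnat1, had a log2 change of -0.32 (SE 0.10, 95% interval -0.53 to -0.11). Its adjusted p was 0.056 in limma and 0.061 in edgeR, which did not pass, and 0.025 in DESeq2 and 0.041 in voom, which did.

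Nampt, which sets the pace of salvage by turning nicotinamide into its mononucleotide, had 6115, 7256, 7379 and 6356 normalized counts in the fasted kidneys, against 4153, 4469, 3864, 5411 and 4932 in the fed kidneys. The fasted libraries were all higher than the fed ones, with Fed 4 the nearest. Nampt averaged 6777 ± 635 in fasted and 4566 ± 617 in fed kidneys (SD, n = 4 and n = 5), a log2 change of 0.58 (SE 0.10, 95% interval 0.35 to 0.80, limma adjusted p = 0.0061). Of all genes tested 725 (4.80%) had a higher log2 change.

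Nnmt, which methylates nicotinamide and so takes it out of salvage, had 15.8, 23.1, 32.6 and 21.3 normalized counts in the fasted kidneys, against 19.4, 34.1, 14.5, 19.3 and 12.9 in the fed kidneys. It was close to the minimum for testing, the groups overlap, and its change of 0.24 (SE 0.30, 95% interval -0.42 to 0.90) could not be told from 0. Nnmt is known to be abundant in fat. Of the 6 adipocyte markers listed 3 were tested, and 2 of these passed as higher, Fabp4 and Plin1. Plin1 had 6.51, 70.7, 1.92 and 10.7 normalized counts in the fasted libraries and at most 1.84 in the fed ones. It reached the minimum for testing through Fasted 2, had no test without that library, and lost its call in 5 of 17 alternatives. Car3, the third, averaged 337 ± 108 in fasted and 1242 ± 635 in fed libraries (SD), a log2 change of -1.66 with an adjusted p of 0.062 in limma, 0.026 in edgeR and 0.0060 in DESeq2. The summed level of the 6 was 981 to 1570 in fasted and 1017 to 2439 in fed libraries, most of it from Fabp4 and Car3, and Adipoq had at most 2.8 normalized counts in the fasted and 1.3 in the fed libraries.

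**Figure D4:**
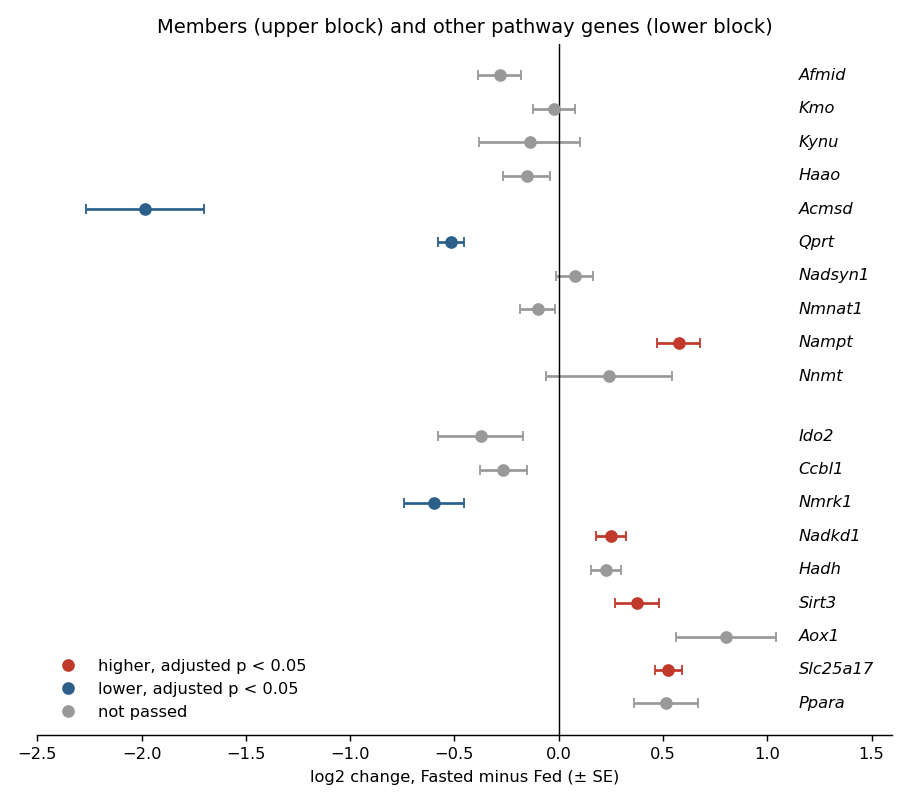
Log2 change, Fasted minus Fed, with its SE for the 10 genes (upper block) and for other genes of the pathway named by a fixed rule (lower block); red marks genes higher and blue genes lower at an adjusted p under 0.05, grey those that did not pass. Acmsd lies at -1.98, and every other gene drawn lies between -0.60 and 0.80.

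Levels were set side by side per kilobase of annotated exon, the union of a gene's exons in GENCODE M21. In the fasted kidneys Nampt led with 1341 ± 126 normalized counts per kb, followed by Kmo with 802 ± 56.3 and Haao with 618 ± 32.6 (SD). Acmsd stood in position 7 in the fasted kidneys, with 275 ± 59.7 per kb, next to Nadsyn1 at 315 ± 29.0, whose range it overlapped. In the fed kidneys Acmsd held position 1, with 1145 ± 419 per kb, ahead of Nampt at 903 ± 122, Kmo at 820 ± 115, Haao at 695 ± 119 and Qprt at 523 ± 29.9. The range of each of these 5 genes in the fed libraries overlapped that of the next, so their order there is not resolved. At the low end, Nmnat1 (89.3 ± 5.06 fasted, 95.8 ± 5.98 fed), Kynu (66.2 ± 20.9 fasted, 74.0 ± 27.7 fed) and Nnmt (14.7 ± 4.44 fasted, 12.7 ± 5.30 fed) kept positions 8, 9 and 10 in both groups. Because the exon union counts every annotated isoform, a gene with long unused exons reads too low on this scale.

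**Figure D5:**
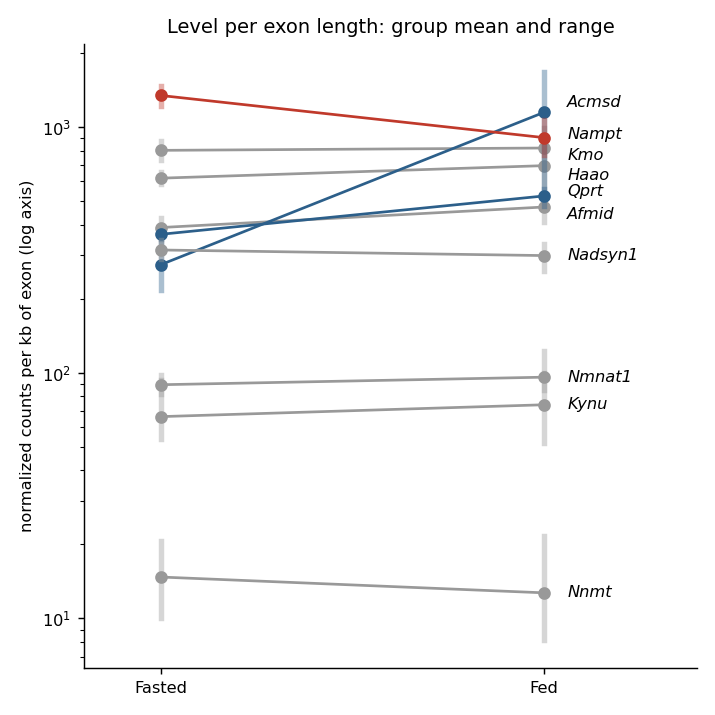
Mean normalized counts per kb of exon (log axis) in Fasted (left) and Fed (right) kidneys, with pale bars for the range over libraries; red marks the gene called higher, blue the genes called lower, grey the others. Acmsd lies at 275 per kb in the fasted and 1145 per kb in the fed kidneys, crossing 6 of the other genes.

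Genes around the route were taken from lists chosen for their function, to be read against the same shares of all genes called. None of the 2 tested genes that open tryptophan passed: the dioxygenase gene Tdo2, mainly known from liver, had 178 ± 88.6 normalized counts in fasted and 125 ± 130 in fed kidneys, and Ido2 had 196 ± 45.6 in fasted and 255 ± 69.6 in fed kidneys (SD), while Ido1 was under the minimum. The liver marker Alb ranged from 1848 to 7396 in the fasted and from 251 to 10091 in the fed libraries. Fed 2, with the highest Alb, also had the highest Tdo2 (341), and Fed 1 and Fed 5, with the lowest Alb, had 24.6 and 21.9. Among the other hepatocyte markers listed, Apoa2, Fgb and Ahsg were likewise lowest in Fed 1 and Fed 5. They had 60.3, 61.0 and 8.19 in Fed 1 and 49.7, 90.5 and 21.9 in Fed 5. Apoa2 and Fgb were highest in Fed 2 (636 and 736), and Ahsg in Fasted 4 (1109). Ttr was highest in Fed 2 (3024) and lowest in Fed 5 (747), but had 1433 in Fed 1. Serpina1a differed, with 501 in Fed 5, its highest fed library, against 315 in Fed 2. With log2 Alb as a covariate the log2 changes of Acmsd (-2.05), Qprt (-0.54) and Nampt (0.59) passed in limma. Alb is a single marker that Serpina1a did not follow, and the part of liver RNA in these changes was not otherwise tested.

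Of the 4 genes of the side branches that turn kynurenine into kynurenic acid and related products none passed, and Ccbl1, a kynurenine aminotransferase, had the smallest p (log2 change -0.27, SE 0.11, limma adjusted p = 0.15). Below Acmsd, none of the 6 genes of the route to glutaryl-CoA and beyond passed. Hadh, a mitochondrial dehydrogenase shared with fat oxidation, had the smallest p, with 12883 ± 910 in fasted and 10998 ± 639 in fed kidneys (SD, log2 change 0.23, limma adjusted p = 0.066, with 0.047 without Fed 4 and 0.0148 in DESeq2). Aldh8a1, which oxidises the product of Acmsd, averaged 10039 ± 768 in fasted and 10514 ± 1456 in fed kidneys (SD), a log2 change of -0.06 (SE 0.11, 95% interval -0.29 to 0.17).

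In the list of other salvage enzymes and NAD kinases 8 of 10 genes were tested, of which 1 rose and 1 fell. Nmrk1, a kinase that feeds nicotinamide riboside into NAD, had 837, 982, 1065 and 1191 normalized counts in the fasted kidneys, against 1603, 1219, 1394, 2057 and 1501 in the fed kidneys. The groups do not overlap, Fasted 4 and Fed 2 being close. Its log2 change was -0.60 (SE 0.14, limma adjusted p = 0.0227). Leaving out Fasted 1 (0.068), Fasted 2 (0.059) or Fed 1 (0.055) ended this call, as did log2 Alb as a covariate (0.056). Nadkd1, the mitochondrial NAD kinase now called Nadk2, rose to 4053 ± 205 in fasted kidneys, against 3410 ± 291 in fed kidneys (SD), a log2 change of 0.25 (SE 0.07, limma adjusted p = 0.0469). This call was kept without Fed 4 and lost without any other single library (0.0631 to 0.124), and edgeR's quasi-likelihood test gave 0.051. Nudt12, of the same list, did not pass in limma (log2 change 0.28, adjusted p = 0.068) but did in DESeq2 (0.037). Nmnat2 and Nmrk2, known from nerve and muscle, were under the minimum.

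Of 15 tested genes whose products consume NAD, 1 rose and none fell. Sirt3, the mitochondrial deacetylase, had 2314, 2265, 2345 and 2357 normalized counts in the fasted kidneys, against 1675, 2000, 1483, 2225 and 1668 in the fed kidneys. The fasted values are tight and lie above all the fed ones, with Fed 4 the nearest. The log2 change was 0.37 (SE 0.11, limma adjusted p = 0.044), a call kept without Fed 2 or Fed 4 and lost without any other single library (0.0613 to 0.115) and in edgeR's quasi-likelihood test (0.051). Sirt1 had 999 ± 30.8 in fasted and 972 ± 46.5 in fed kidneys, and Parp1 had 1869 ± 65.3 in fasted and 1934 ± 95.9 in fed kidneys (SD), and neither passed. Tnks did not pass in limma (log2 change 0.23, adjusted p = 0.071) but did in DESeq2 (0.040).

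In the list of 5 nucleotide and precursor carriers and the transhydrogenase Nnt 1 of 6 genes rose. Slc25a17, a peroxisomal membrane carrier of coenzyme A, FAD and NAD, had 3450, 3572, 3324 and 3624 normalized counts in the fasted kidneys, against 2234, 2465, 2259, 2605 and 2584 in the fed kidneys. Its groups are well apart, with a log2 change of 0.53 (SE 0.07, limma adjusted p = 0.000803). Slc25a51 (log2 change -0.24, adjusted p = 0.091) and Slc22a13 (0.30, 0.069) did not pass in limma but did in DESeq2 (0.046 and 0.030). In the list of nicotinamide methylation and clearance none of 6 genes passed. Aox1, an aldehyde oxidase that acts on methylated nicotinamide, came nearest, with 81.9 ± 15.5 in fasted and 47.9 ± 15.7 in fed kidneys (SD, limma adjusted p = 0.054). It passed in 4 of 19 alternatives, without Fed 2 (0.0335), without Fed 3 (0.0458), with DESeq2 (0.0192) and with voom (0.0400). None of 6 regulators known for this route passed in limma either. Nr3c1 had a log2 change of -0.25 (adjusted p = 0.080 in limma and 0.036 in DESeq2). Ppara had 7609 ± 931 in fasted and 5420 ± 1346 in fed kidneys (SD, limma adjusted p = 0.055, with 0.0056 without Fed 4 and 0.0206 in DESeq2), and Ppargc1a and Hnf4a changed by -0.08 (SE 0.09) and -0.09 (SE 0.07) on the log2 scale without passing.

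By likeness over the 9 libraries, the 5 genes closest to Acmsd among 11020 named genes averaging 100 normalized counts or more were Lactb2, Gatm, Kl, Cdkl2 and Bcs1l. Pearson's r of log2 values with Acmsd was 0.99 for Lactb2 and Gatm and 0.98 for the other 3. The group difference enters these values, and after removing the group means r was between 0.88 and 0.94 for all 5. The 5 were chosen by r over the same 9 libraries, so this second r is no separate evidence of likeness. All 5 were lower in the fasted kidneys, with log2 changes from -1.78 for Gatm, the first enzyme of creatine synthesis, to -0.34 for Bcs1l. In each of the 5, as in Acmsd, Fed 5 was the lowest fed library, so that library weighs on r with and without the group means. Gatm, for example, had 7118, 6125, 7845 and 6334 normalized counts in the fasted kidneys, against 29651, 24839, 26145, 26975 and 13512 in the fed kidneys.

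The libraries held 18902645 to 27186745 reads in the fasted and 19638174 to 32469467 in the fed group. The proximal tubule, known as the site of the kynurenine enzymes in kidney, was present by all 8 of its markers, of which 1 rose (Slc13a3) and none fell in limma, with summed levels of 306747 to 372403 in fasted and 347028 to 469844 in fed libraries. Most of that sum was Lrp2, with 167066 to 217395 in fasted and 223642 to 298529 in fed libraries (log2 change -0.47). Its groups do not overlap, and its adjusted p was 0.066 in limma, 0.030 in edgeR, 0.000404 in DESeq2 and 0.022 in voom. Slc7a13 (-0.42), Slc5a2 (-0.35), Slc5a12 (-0.30) and Cubn (-0.05) also had negative log2 changes without passing. Those of Slc22a6 (0.14) and Slc22a8 (0.19) were positive without passing, and the median of the list was -0.17. The Slc13a3 call was lost without Fasted 3 (0.068), without Fed 1 (0.058) and with log2 Alb as a covariate (0.061). Of 4 fibroblast markers Dcn and Pdgfra rose and Col1a1 fell (sums of 5547 to 7065 in fasted and 4311 to 6277 in fed libraries), and of 6 collecting duct markers Slc4a1 fell (sums of 9187 to 9677 in fasted and 10077 to 12191 in fed libraries). No distal tubule, hepatocyte, leukocyte or injury marker passed. The part of these shifts in the changes of Acmsd, Qprt and Nampt was not tested.

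In the authors' deposited table the log2 fold change was -1.32 for Acmsd (adjusted p = 5.54e-08), -0.51 for Qprt (1.53e-11) and 0.54 for Nampt (1.38e-05). DESeq2 on recovered reads here gave -2.06 for Acmsd, -0.52 for Qprt and 0.57 for Nampt. The authors' change was also smaller in size for Kynu (-0.12, against -0.16 in DESeq2 here) and Nnmt (0.12, against 0.20). Together with Acmsd (0.214) these genes had the largest standard errors in the authors' table (0.190 for Kynu and 0.219 for Nnmt). The gaps are not explained in the sources used here, so the -1.32 of Acmsd may not be the same measure. The authors' deposited table of annotation terms lists tryptophan metabolism with 7 genes and a fold enrichment of 2.23 (p = 0.0892, Benjamini 0.538), and Acmsd is the one gene there that is also described here.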

How the data were processed

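RNA was sequenced from 9 kidney cortex libraries. The submitters' processing notes name TopHat2 2.0.9, HTSeq 0.9.1, FastQC and DESeq2 and list mm10 beside hg19 as builds; the annotation and strand setting used for counting are not given in the sources used here. The deposited signal is a gene's read count over its library's size factor, so it is called a normalized count. Dividing by the value of 1 read gave whole reads, to within 0.01, for all 161194 values above 0. The authors' log2 fold changes, the score (fold change over its standard error), the p-value columns and the term table's counts and fold enrichment are the authors' and were only copied.

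Changes were tested with limma 3.58.1 with a trend, two-sided, on log2(value + 1) in R 4.3.3, over all 15098 genes averaging 10 normalized counts or more, with Benjamini-Hochberg adjustment over all of them. A fold change on this scale understates that of low genes. The steps were tested on simulated data. Acmsd against Qprt was tested by exact permutation (scipy 1.17.1). Alternatives were other pseudocounts, minimums, TMM, edgeR 4.0.16, DESeq2 1.42.0 and voom on recovered reads, log2 Alb as a covariate and libraries left out. The genes and lists were chosen with earlier results of these data known. Genes named beside the 10 are, from each of 8 pathway lists, up to 4 called genes or else the smallest p. Also named are the 5 genes most like Acmsd and, from 8 marker lists, those called or, like Adipoq, near 0. Tdo2, Ido1, Nmnat2, Nmnat3, Nmrk2, Nudt12, Nnt, Slc25a51, Slc22a13, Aldh8a1, Sirt1, Parp1, Tnks, Ppargc1a, Hnf4a and Nr3c1 were named after their values were seen. So were the markers Alb, Ttr, Apoa2, Serpina1a, Ahsg, Fgb, Havcr1, Lcn2, Krt20, Vcam1, Ptprc, Cd68, Lrp2, Cubn, Slc5a2, Slc5a12, Slc7a13, Slc22a6, Slc22a8 and Car3. Gene positions are from GENCODE M21 on GRCm38 (mm10), matched by Ensembl identifier for all 10 genes. The promoter of Acmsd is not reported here.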

Additional observations from a re-analysis of the deposited data

Results flagged for a closer look

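Libraries far from the rest of their group were sought for the 10 genes, the pathway genes named by rule and the Acmsd to Qprt difference, by the gap to the nearest library over the group's range (Dixon's 95% limit), in 40 groups of values. Chance flags about 1 in 20 such groups, and 3 were found. Kynu had 599 normalized counts in Fasted 4, against 329 to 361 in the other fasted libraries. Kynu also had 753 in Fed 5, against 318 to 410.2 in the other fed libraries. Nmnat1 had 259 in Fed 3, against 295 to 303 in the other fed libraries, and Fed 3 is the library with most counts of the ribosomal RNA entry Rn45s (5.53%, against 0.622% to 2.36% in fasted and 0.513% to 1.38% in the other fed libraries). What part Rn45s has in the Nmnat1 value was not tested.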

How the results depend on the processing

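The calls of Acmsd, Qprt and Nampt kept their direction and passed in all 19 alternatives, and no other of the 10 genes passed in any. The log2 change ranged from -2.25 to -1.83 for Acmsd (largest adjusted p = 0.010), from -0.55 to -0.49 for Qprt (0.0061) and from 0.52 to 0.64 for Nampt (0.0228). The number of all genes called was 1656, against 861 (without Fasted 4) to 1959 (without Fed 5) without 1 library each, with 1004 without Fed 1, 1062 without Fasted 3 and 1084 without Fasted 1. It was 1068 without Fed 3 and Fasted 1, 1655 with edgeR and 2349 with DESeq2. The Acmsd to Qprt difference ranged from -1.70 to -1.31 without 1 library each, with exact p of 0.0286 to 0.0357, each the smallest possible. Without Fed 3 and Fasted 1 it was -1.54 with an exact p = 0.0571, the smallest that the 7 remaining libraries can give. No paired analysis was possible because the labels give no numbers shared between fasted and fed libraries. The labels give no batch. With 4 fasted and 5 fed libraries, changes of the size of that in Haao or Nmnat1 cannot be told from 0. Of the called fibroblast markers Pdgfra missed the threshold without Fed 3 and Fasted 1.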
